A study of Macaca fascicularis with 86 samples.

Results

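The sections of one crab-eating macaque embryo at E20 (embryonic day 20) fell into 2 blocks by the number in their titles, and the genes that set these blocks apart are described here. Sections 1 to 5 gave 28 laser-captured regions and sections 6 and 7 gave 8, together 36 of the 86 regions and 7 of the 17 sections in the series. The series is a spatial RNA sequencing map of gastrulating embryos made with Geo-seq, in which pieces of 5 to 50 cells are cut from cryosections with a laser and their polyadenylated RNA is sequenced. The other 50 regions come from 2 embryos at E18 (embryonic day 18) and are used only for levels beside the E20 values. The labels give no treatment or genotype for any embryo. The labels name the tissue as embryo only, without a germ layer, and leave unsaid from which end of the embryo the sections were numbered.

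The blocks were chosen by measured values of these same sections. Levels of yolk sac endoderm genes (APOA1, TTR) were high in sections 1 to 5 and those of epiblast and primitive streak genes (SOX2, MIXL1) in sections 6 and 7. The contrast between the blocks is therefore a description without a test, and its direction for these gene groups is no finding. All values come from 1 embryo, and the regions of a section share that section. In mixed pieces of tissue, fewer cells of a type and less RNA per cell cannot be told apart.

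In the primate embryo at this age the yolk sac is a double-layered sac. Its inner layer is extraembryonic endoderm, which secretes plasma proteins and lipoproteins before the liver does. Its outer layer is extraembryonic mesoderm, which holds mesenchyme and the first blood vessels and blood islands. The embryonic disc is a flat epithelium of pluripotent epiblast in which the primitive streak forms mesoderm and definitive endoderm, and the amnion arches over it.

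The values are TPM (the deposited unit, a length-scaled share of the reads of a region), and differences are on the log2(TPM + 1) scale, as the mean of the section means of sections 1 to 5 minus that of sections 6 and 7. TPM holds no read counts, and the sequencing depth of a region is therefore unknown. Regions of sections 1 to 5 had 6194 to 10674 genes at 1 TPM or more (median 8451.5), and those of sections 6 and 7 had 10046 to 10950 (median 10522.5). Mitochondrially encoded genes held 13.5% to 26.0% of the summed TPM in the 28 regions and 9.82% to 28.8% in the 8. ACTB was listed at 0 in 0 of the 36 regions, and HPRT1 in 4 of 28 and 0 of 8. The part that the number of genes detected had in the differences between the blocks was not tested.

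The 4 marker genes, whose levels went into the choice of the split, are given here at region level, with 1 region standing apart. TTR, the carrier of thyroid hormone and of the retinol carrier RBP4, was at 2.78 to 2672 TPM in sections 1 to 5 (median 1248) and at no more than 1.19 TPM in sections 6 and 7. SOX2, a core factor of pluripotent epiblast, was at 7.25 to 81.4 TPM in all 8 regions of sections 6 and 7. In sections 1 to 5 it was listed at 0 in 24 of 28 regions and reached 0.211 TPM. The 2 blocks did not overlap for TTR, for SOX2 or for MIXL1. MIXL1, a homeobox gene of the primitive streak, was at 0 to 2.77 TPM in the 28 regions and at 3.20 to 933 TPM in the 8. APOA1, the main protein of high-density lipoprotein, was at 11.9 to 25004 TPM (median 9616) in sections 1 to 5. In sections 6 and 7 it was at 5.04 to 152 TPM (median 17.4), so the blocks overlapped for this gene. The region with 11.9 TPM of APOA1 was sector 7 of section 2, which was also the lowest of the 28 for TTR.

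**Figure D1:**
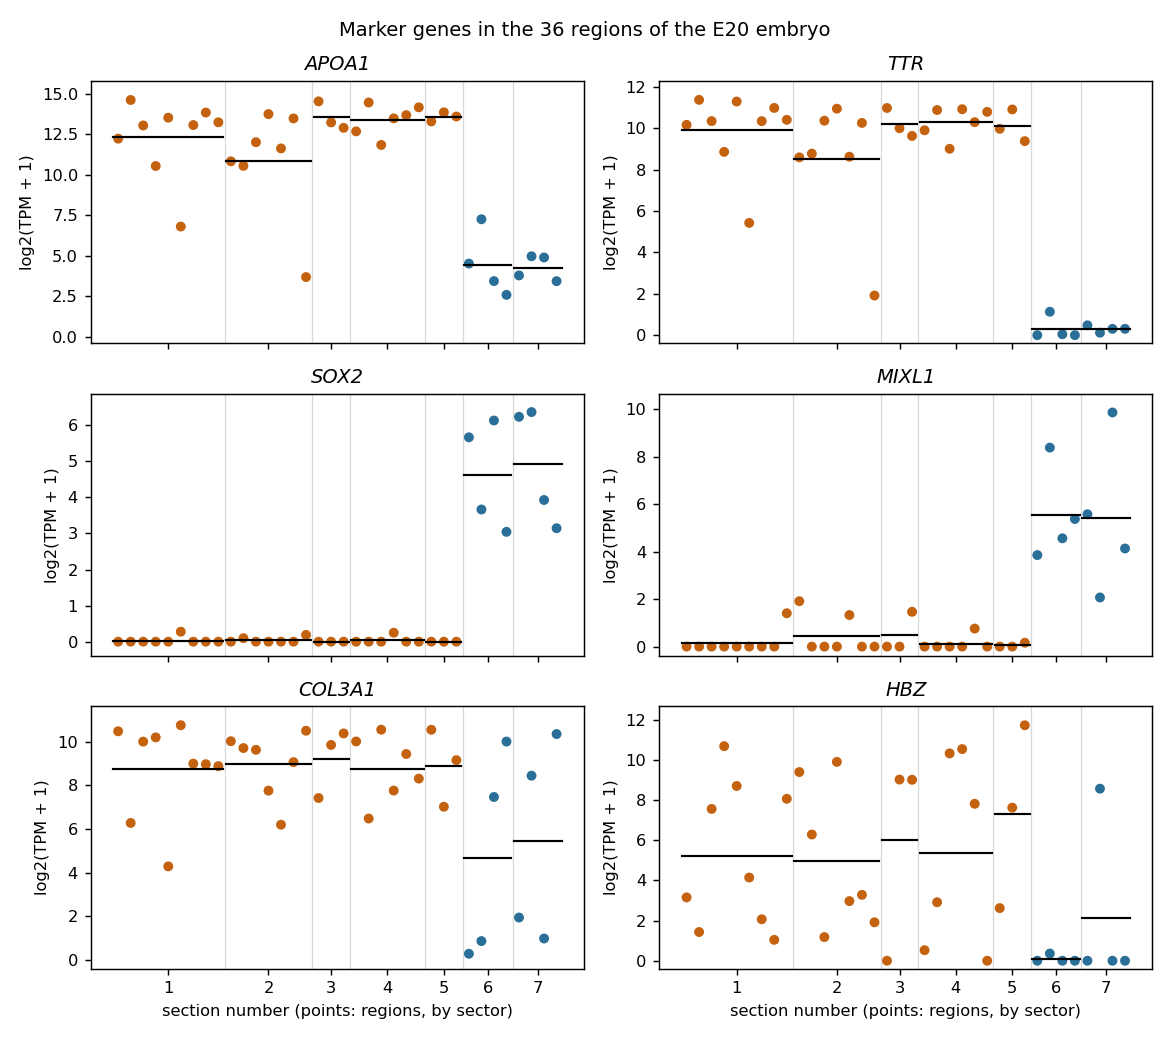
Level of 6 genes, as log2(TPM + 1), in each of the 36 regions of the E20 embryo, by section number (orange points, sections 1 to 5; blue points, sections 6 and 7; black bars, section means). TTR, SOX2 and MIXL1 do not overlap between the blocks, APOA1 overlaps through sector 7 of section 2, and COL3A1 and HBZ are spread widely within both blocks.

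The step between sections lay between numbers 5 and 6. In mean TPM, APOA1 was at 12367 in section 5 and 47.2 in section 6, and TTR was at 1206 and 0.306. SOX2 was listed at 0 in all regions of section 5 and had a mean of 34.4 TPM in section 6, and MIXL1 had means of 0.0400 and 103 TPM. No section lay between the blocks for any of these 4 genes. Since the split was chosen by their levels, this step is no finding.

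A gene was counted as higher in a block when every section mean there lay above (or below) every section mean of the other block and the block means differed by at least 1. Of 12492 genes tested, 1199 (9.6%) were higher in sections 1 to 5 and 3034 (24.3%) were higher in sections 6 and 7. The median difference over all genes was -0.34, so more genes were on the side of sections 6 and 7. Of all counted genes, 28.3% were higher in sections 1 to 5. After quantile normalization, which gives every region the same distribution of values, that share was 42.2% and the median difference was -0.080. Since the rule used these sections, the shares serve as a background for the counts of gene groups below, and nothing is read from them. The filter on low values, 1 TPM in at least 5 of the 36 regions, also fixed part of the counts. Of the genes tested, 1141 would not have passed on the 28 regions alone and 2338 not on the 8 alone, and such genes passed only with the regions of the other block counted. All 11 fibrinogen and coagulation genes and 10 of the 11 plasma carriers were of the second kind. So were 6 of 9 apolipoprotein and lipoprotein assembly genes, 8 of 11 protease inhibitors and 7 of 14 endoderm transcription factors.

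**Figure D2:**
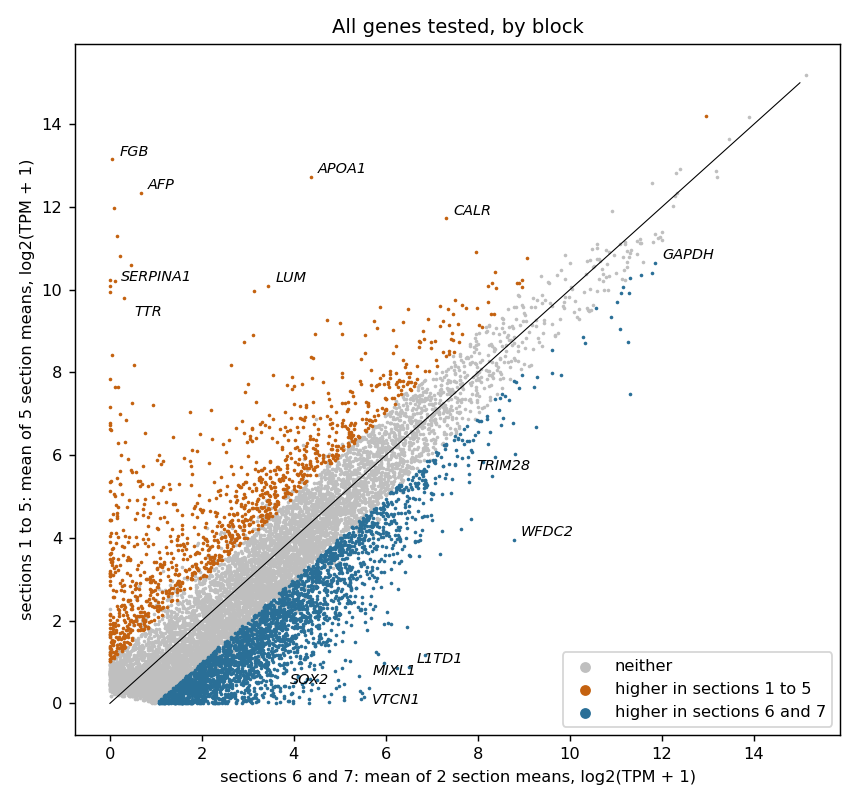
Mean of the section means of sections 1 to 5 against that of sections 6 and 7 for the 12492 genes tested, in log2(TPM + 1), with the line of equal levels (orange, 1199 genes higher in sections 1 to 5; blue, 3034 genes higher in sections 6 and 7). FGB, AFP and APOA1 lie at the upper left, and L1TD1, MIXL1 and VTCN1 at the lower right, while GAPDH lies just below the line.

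The 15 largest differences towards sections 1 to 5 ran from 7.66 to 13.10, and all 15 genes encode secreted or lipoprotein-assembly proteins of the kind a fetal liver makes. FGB, the beta chain of fibrinogen, was at 27.5 to 37517 TPM (median 14403) in the 28 regions. It was at no more than 0.321 TPM in the 8 regions of sections 6 and 7, where 7 listed it at 0, and its difference was 13.10. The other fibrinogen chains FGG (difference 11.90) and FGA (10.08) were close behind. AFP, the fetal albumin-like carrier, was at 15.2 to 33654 TPM against 0 to 2.70 TPM, a difference of 11.67. RBP4 (11.15), APOA2 (10.62), SPINK1 (10.23), AHSG (10.13), TF (10.08), SERPINA1 (9.94) and TTR (9.51) followed. APOB (8.38), APOA1 (8.37), APOC3 (7.84) and MTTP (7.66), which lipidates APOB, closed the set. SPINK1, SERPINA1, FGA and APOC3, 4 of these 15, were listed at 0 in all 8 regions of sections 6 and 7. In 13 of the 15 all 28 regions lay above all 8, which held for 0.488% of all genes tested, and APOA1 and APOC3 were the exceptions. The 15 were picked by the size of their difference, so a high share follows from the choice and nothing is read from it. The section mean was lowest in section 2 for 15 of 15, and the SD over the 5 section means was 0.67 to 1.91. In the 50 regions at E18, 10 of the 15 had a median under 1 TPM.

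Carriers, apolipoproteins and coagulation factors were counted almost wholly on one side, but the filter fixed much of these counts. Of the members counted as higher in sections 1 to 5, many passed the filter only with the 28 regions counted. They were 10 of 11 carriers, 6 of 8 apolipoprotein and assembly genes, 11 of 11 coagulation genes and 7 of 9 protease inhibitors. Over all genes 9.6% were higher in sections 1 to 5. All 11 plasma carriers tested were higher in sections 1 to 5 (median difference 6.79), from AFP to the thyroxine-binding SERPINA7 (1.66). Albumin itself was modest, with ALB at 0 to 226 TPM (median 12.9) in the 28 regions and a difference of 4.04. It was listed at 0 in 3 of those 28 regions and in 7 of the 8 of sections 6 and 7. Among apolipoproteins and lipoprotein assembly genes 8 of 9 were higher in sections 1 to 5 (median 7.66). APOE, the remnant lipoprotein ligand, was the exception, at 247 to 3965 TPM against 352 to 2306 TPM, and the blocks overlapped broadly. All 11 fibrinogen and coagulation genes tested were higher in sections 1 to 5 (median 5.52), among them PLG (plasminogen, 7.55), F2 (prothrombin, 5.77) and SERPINC1 (antithrombin, 5.52). Of 11 protease inhibitors 9 were higher in sections 1 to 5 (median 3.15), while SERPINE2, an inhibitor of thrombin at cell surfaces, was the 1 counted on the other side (-1.14).

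Genes of uptake and liver-type metabolism followed in part. Of 10 endocytic receptors and lysosomal proteases 6 were higher in sections 1 to 5 (median 1.65). CUBN, the cubilin receptor of absorptive endoderm, was at 0 to 27.9 TPM (median 14.3) against no more than 0.135 TPM, a difference of 3.39. LRP2, the megalin receptor that works with cubilin, had a smaller difference of 1.56. Its level in sections 6 and 7 was not uniform, with 31.8 and 33.4 TPM in sector 4 of sections 6 and 7 and 7.28 TPM or less in the other 6 regions. The cathepsin CTSH (3.96) did not overlap between blocks, at 12.1 to 301 TPM against 4.47 to 10.4 TPM. Of 11 liver-type metabolic genes 6 were higher in sections 1 to 5 (median 1.67), among them ARG1, the urea cycle arginase (7.48), and BHMT (6.12). Of the 11, 8 passed the filter only with the 28 regions counted, 5 of them among the 6. CPS1, which starts the urea cycle, was not counted (0.49) and reached 3.82 TPM. Among iron handling genes and metallothioneins 3 of 8 were counted, MT1X (4.55), MT2A (3.11) and the iron exporter SLC40A1 (2.15), and the ferritin chains FTL (0.07) and FTH1 (-0.35) were not. Of 6 complement genes 2 were counted, C8A (3.49) and C3 (1.33).

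Endoderm transcription factors lay on both sides. Of 14 tested, 7 were higher in sections 1 to 5 and 2 in sections 6 and 7 (median 1.41), against 9.6% and 24.3% of all genes. Of the 14, 7 passed the filter only with the 28 regions counted, 5 of them among the 7 higher in sections 1 to 5. The liver-type factors NR1H4 (4.10), FOXA1 (3.34), HNF4A (2.71), NR5A2 (1.78) and ONECUT1 (1.42) were among those higher in sections 1 to 5. So was SOX7 (1.99), an early endoderm and endothelial factor. SOX17, a factor of definitive endoderm and hypoblast, was at 0 to 6.48 TPM in the 28 regions and 0.0463 to 39.2 TPM in the 8, a difference of -1.57. GATA6, needed for hypoblast, had a difference of -1.23, but after quantile normalization only 1 of the 14 was counted as higher in sections 6 and 7. FOXA3 (1.40), FOXA2 (-0.94), HNF4G (-0.18) and GATA4 (0.01) were not counted, and GATA4 was listed at 0 in 22 of 28 regions. CEBPA, PROX1 and ONECUT2 passed the 1 TPM level in too few regions to be tested.

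Signals of visceral endoderm and hypoblast went both ways, with 2 of 8 higher in sections 1 to 5 and 3 in sections 6 and 7. FRZB, a secreted WNT antagonist, was at 22.3 to 940.4 TPM against 3.33 to 47.9 TPM, a difference of 3.55 with an SD of 0.12 over the section means. LGALS2, a galectin, was listed at 0 in all 8 regions and had a median of 48.1 TPM in the 28. CER1, DKK1 and FST, which block NODAL, WNT and activin signals, had differences of -3.77, -1.40 and -2.72. The median of the list was -0.14 as deposited and 0.29 after quantile normalization, so its sign depended on the scaling.

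The plasma protein genes did not stand alone in sections 1 to 5, where genes of the mesodermal layer were also high. Of 19 mesenchyme genes 12 were higher in sections 1 to 5 and 2 in sections 6 and 7 (median 1.66), and after quantile normalization the counts were 14 and 0. The filter fixed part of this count, since 8 of the 19 passed only with the 28 regions counted, 5 of them among the 12. LUM, the collagen-binding lumican, was at 159.7 to 7124 TPM (median 1223) in the 28 regions and at 0 to 182 TPM in the 8, so the blocks overlapped little, with a difference of 6.65. COL3A1, a fibrillar collagen, was at 18.6 to 1735 TPM in sections 1 to 5 and at 0.222 to 1309 TPM in sections 6 and 7. The 2 blocks overlapped for COL3A1, since sector 4 of section 6 (1032 TPM) and sector 4 of section 7 (1309 TPM) lay above the median of the 28 (633 TPM). POSTN (3.57), the FOX factor FOXF1 (3.13), VIM (3.05) and DCN (2.93) were counted too, whereas COL1A1 (0.70) was not. TWIST1 and COL6A3 were the 2 higher in sections 6 and 7, and TWIST1 was listed at 0 in all 28 regions.

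Basement membrane and vessel genes gave a similar picture. Of 8 basement membrane genes 5 were higher in sections 1 to 5 (median 1.64). NID2, the linker nidogen-2, was at 94.6 to 296 TPM in every region of sections 1 to 5 and at no more than 62.9 TPM in sections 6 and 7, a difference of 4.58. LAMA5, a laminin chain, was the 1 counted in the other direction (-1.39). Of 15 endothelial genes 10 were higher in sections 1 to 5 and 1, EGFL7 (-1.28), in sections 6 and 7 (median 2.05). Of the 15, 6 passed the filter only with the 28 regions counted, 5 of them among the 10. The VEGF receptor KDR (3.81), the angiopoietin receptor TEK (3.48) and the junction protein PECAM1 (3.44) were at 1 TPM or more in 28 of 28 regions of sections 1 to 5. TEK reached 591 TPM in that block and 55.7 TPM in sections 6 and 7. The mean log2(TPM + 1) over the 15 endothelial genes was 1.68 to 5.15 in the 28 regions and 1.21 to 2.95 in the 8.

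Blood genes were patchy. Of 11 erythroid and blood genes 5 were higher in sections 1 to 5 and 1, EPOR, in sections 6 and 7 (median 0.85). Of the 11, 9 passed the filter only with the 28 regions counted, among them all 5. The 5 fell to 3 without section 5, to 3 with a pseudocount of 0.1 and to 1 with section medians in place of means. HBZ, the embryonic zeta globin, was listed at 0 in 2 of 28 regions and reached 3380.4 TPM in sector 3 of section 5, around a median of 46.8. In sections 6 and 7 it was at 378 TPM in sector 2 of section 7, at 0.282 TPM in sector 2 of section 6 and listed at 0 in the other 6 regions. AHSP, the alpha-globin chaperone, and HBM, the globin mu, were each listed at 0 in 12 of 28 regions, with highest values of 136 and 140.2 TPM.

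Markers of cells from outside the embryo and of immune cells were low or mixed. Of 5 macrophage genes tested, CD14 (3.51) was the 1 counted, with a median of 17.6 TPM in the 28 regions. With a pseudocount of 0.1 a further 2 were counted as higher in sections 6 and 7. The complement subunits C1QA and C1QC were listed at 0 in all 36 regions, and C1QB in all 28 of sections 1 to 5. Of 9 trophoblast genes 2 were higher in sections 1 to 5, CGA (4.39), the common alpha subunit of glycoprotein hormones, and PGF (1.13), and KRT23 (-1.23) was higher in sections 6 and 7. CGA was at 32.7 to 1658 TPM against 1.87 to 128 TPM, while GCM1 and HSD3B1, which define syncytiotrophoblast, had medians of 0 in both blocks. Of 5 decidual genes IGFBP1, a growth factor binding protein that liver also makes, was 1 higher in sections 1 to 5 (4.81), and PAEP, a glycoprotein of the uterine lining, was 1 in the other direction. PRL, which decidua secretes, did not exceed 0.911 TPM in any of the 36 regions. The part of such cells in the differences was not tested.

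**Figure D3:**
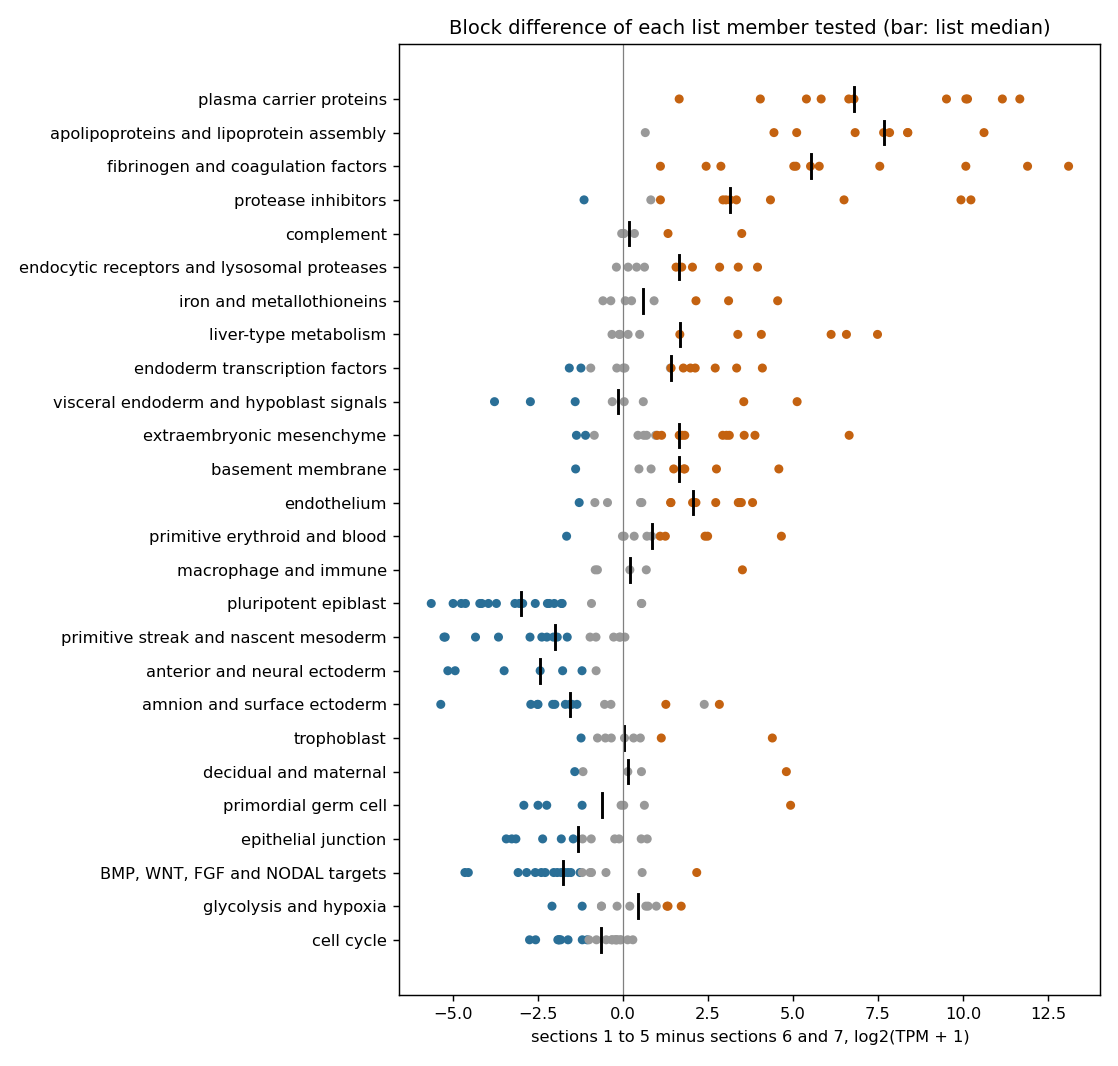
Difference of every tested member of 26 gene lists, sections 1 to 5 minus sections 6 and 7 in log2(TPM + 1), with the list median as a bar (orange and blue, counted as higher in sections 1 to 5 or in sections 6 and 7; grey, not counted). The plasma protein lists lie to the right, with medians of 6.79, 7.66 and 5.52, and the epiblast list to the left, with a median of -2.99.

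The 15 largest differences towards sections 6 and 7 ran from -4.64 to -5.67, smaller in size than those in the other direction. CNFN, a cornified envelope protein, was at 66.7 to 163 TPM in the 8 regions, around a median of 119. In the 28 regions it was listed at 0 in 17 and reached 26.5 TPM, and the difference was -5.67. L1TD1, an RNA-binding protein of pluripotent cells, was at 9.28 to 235 TPM against 0 to 10.7 TPM (-5.63). The next were TMEM54 (-5.39), VTCN1 (-5.35), CST6 (-5.35), EOMES (-5.26), MIXL1 (-5.22) and OTX2 (-5.14). DPPA5 (-4.99), the membrane protease PRSS8 (-4.99), ZIC2 (-4.93), WFDC2 (-4.82), CPZ (-4.76), SOX2 (-4.75) and FOXH1 (-4.64), the DNA-binding partner of NODAL-activated SMADs, completed the set. In 9 of the 15 all 8 regions lay above all 28, which held for 0.937% of all genes tested. Nothing is read from this share either, since the 15 were picked by the size of their difference. None of them, 0 of 15, was listed at 0 in all 28 regions, and 0 of 15 had a median under 1 TPM in the 50 regions at E18.

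Nearly all epiblast genes lay on that side. Of 20 tested, 17 were higher in sections 6 and 7 and 0 in sections 1 to 5 (median -2.99), and the same counts were found after quantile normalization. Of the 17, 8 passed the filter only with the 8 regions counted. Besides those named above, SLC7A3 (-4.63), the NODAL co-receptor TDGF1 (-4.20), NANOG (-3.17) and the DNA methyltransferase DNMT3B (-2.94) were counted. NANOG was at 2.78 to 42.4 TPM in the 8 regions and was listed at 0 in 23 of the 28. PODXL (0.56), LIN28B (0.54) and DPPA4 (-0.92) were not counted. These 3 were at 2.30 TPM or more in every region of sections 1 to 5. Of 7 anterior and neural ectoderm genes 6 were higher in sections 6 and 7 (median -2.43), among them OTX2, ZIC2, HESX1 (-3.49), SOX11 (-1.77) and ZIC5 (-1.20), and LHX2 (-0.79) was not counted. Of the 7, 5 passed the filter only with the 8 regions counted. SOX1, a neural plate gene, was listed at 0 in all 36 regions.

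Primitive streak genes were high in few regions. Of 16 tested, 10 were higher in sections 6 and 7 and 0 in sections 1 to 5 (median -1.98). The filter fixed much of this count, since 9 of the 16 passed only with the 8 regions of sections 6 and 7 counted, 8 of them among the 10, and 3 were listed at 0 in all 28 regions. Over all 26 in the table, filtered or not, the median was -1.57. A further 10 of the 26 in the table, among them TBXT (brachyury), GSC, MESP1, TBX6 and NODAL, reached 1 TPM in too few regions to be tested. TBXT was listed at 0 in all 28 regions of sections 1 to 5. In sections 6 and 7 it was at 19.8 TPM in sector 2 of section 6 and 63.9 TPM in sector 3 of section 7, and at 3.26 TPM or less elsewhere. EOMES, a T-box factor of streak and endoderm, was at 8.90 to 505 TPM in the 8 regions. FGF17, an FGF ligand of the streak, was listed at 0 in all 28 regions, and its 2 highest values were 911 and 528 TPM in the same 2 regions as those of TBXT.

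Genes tied to BMP, WNT, FGF, NODAL and retinoic acid signalling were mostly on the same side, and activity of these pathways was not measured. Of 20 tested, 14 were higher in sections 6 and 7 and 1, DHRS3 (2.17), in sections 1 to 5 (median -1.76). The BMP targets ID1 (-2.83) and ID3 (-2.28) were at 163 to 551 and 67.6 to 768 TPM in the 8 regions. ID1 was at 0 to 197 TPM in the 28, which overlapped at the edge. ID2 was not counted (0.57). The FGF feedback phosphatase DUSP6 (-3.08), the WNT target AXIN2 (-2.03) and the retinoic acid hydroxylase CYP26A1 (-4.54) were counted, each with overlapping regions. Of 12 epithelial junction genes 6 were higher in sections 6 and 7 and 0 in sections 1 to 5 (median -1.32). CDH1, E-cadherin, was at 2.08 to 31.4 TPM in the 8 regions and listed at 0 in 21 of 28, whereas EPCAM (0.54) was at 273 to 916 TPM in the 28 and at 111 to 2272 TPM in the 8.

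Sections 6 and 7 were not disc throughout, and their 8 regions are described here in 4 pairs, formed from named genes after their values were seen. Sector 1 of section 6 and sector 1 of section 7 were high for epiblast genes, with SOX2 at 49.8 and 74.3 TPM and NANOG at 30.4 and 42.4 TPM. HESX1, an anterior factor, was highest in sector 1 of section 6 (205 TPM). COL3A1 was at 0.222 and 2.86 TPM and LUM at 0 and 0.797 TPM in these 2 regions.

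Sector 2 of section 6 and sector 3 of section 7 held the streak and endoderm genes. MIXL1 was at 333 and 933 TPM there and at 46.7 TPM or less in the other 6 regions. CER1 was at 546 and 367 TPM, FOXA2 at 100.2 and 44.0 TPM and SOX17 at 35.3 and 39.2 TPM. The mesoderm factor MESP1 separated the 2 regions, at 0.302 TPM in the first and 98.8 TPM in the second. CHRD, the BMP antagonist of the node, went the other way, at 408 and 1.38 TPM. GSC, an organiser factor, was at 50.1 and 50.8 TPM. APOA1 (152 TPM), APOA2 (2.21 TPM) and TTR (1.19 TPM) had their highest values of the 8 regions in sector 2 of section 6.

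Sector 4 of section 6 and sector 4 of section 7 held amnion and mesenchyme genes. VTCN1, an immune checkpoint ligand high in amnion, was at 758 and 965 TPM, and the GABA receptor subunit GABRP at 455 and 436 TPM. TFAP2A was at 74.7 and 121 TPM, and HAND1, a factor of extraembryonic mesoderm and amnion, at 619 and 674 TPM. SOX2 was lowest there, at 7.25 and 7.85 TPM. The low TDGF1 of 7.14 and 2.35 TPM set them apart from the other 6 regions, which were at 129 to 242 TPM. WFDC2 was at 6714 and 7169.8 TPM, and the next highest region had 1652. Of 15 amnion and surface ectoderm genes tested over the blocks, 10 were higher in sections 6 and 7 and 2, IGFBP3 (2.84) and KRT19 (1.26), in sections 1 to 5 (median -1.56). GABRP, TFAP2B, WNT6 and KRT17 passed 1 TPM in too few regions to be tested.

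Sector 3 of section 6 and sector 2 of section 7 held epiblast, mesenchyme and amnion genes. The mean log2(TPM + 1) over the amnion and surface ectoderm genes was 4.32 and 4.12 in these 2 regions. It was 6.23 and 6.25 in the sector 4 regions and 2.03 or less in the remaining regions of sections 6 and 7. SOX2 was at 69.1 and 81.4 TPM, the second value being the highest of the 8, beside COL3A1 at 177 and 348 TPM, HAND1 at 134 and 107 TPM and ISL1 at 12.8 and 26.8 TPM. MIXL1 was lowest of the 8 in sector 2 of section 7 (3.20 TPM), which was also the region with HBZ. Likeness over all 12492 genes followed these pairs in part, given as r across genes, which are not independent. The pairs were formed from values of the same regions, so likeness is no separate support for them. Among the 8 regions r ran from 0.72 to 0.93. Likeness was 0.93 between the sector 1 regions and 0.92 between the sector 4 regions, in each case the highest r of both. Sector 2 of section 6 had r = 0.905 with its partner and 0.918 with sector 1 of section 6. That partner, sector 3 of section 7, had r = 0.911 with sector 1 of section 7. Sector 3 of section 6 had r = 0.906 with its partner and 0.916 with sector 1 of section 6.

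**Figure D4:**
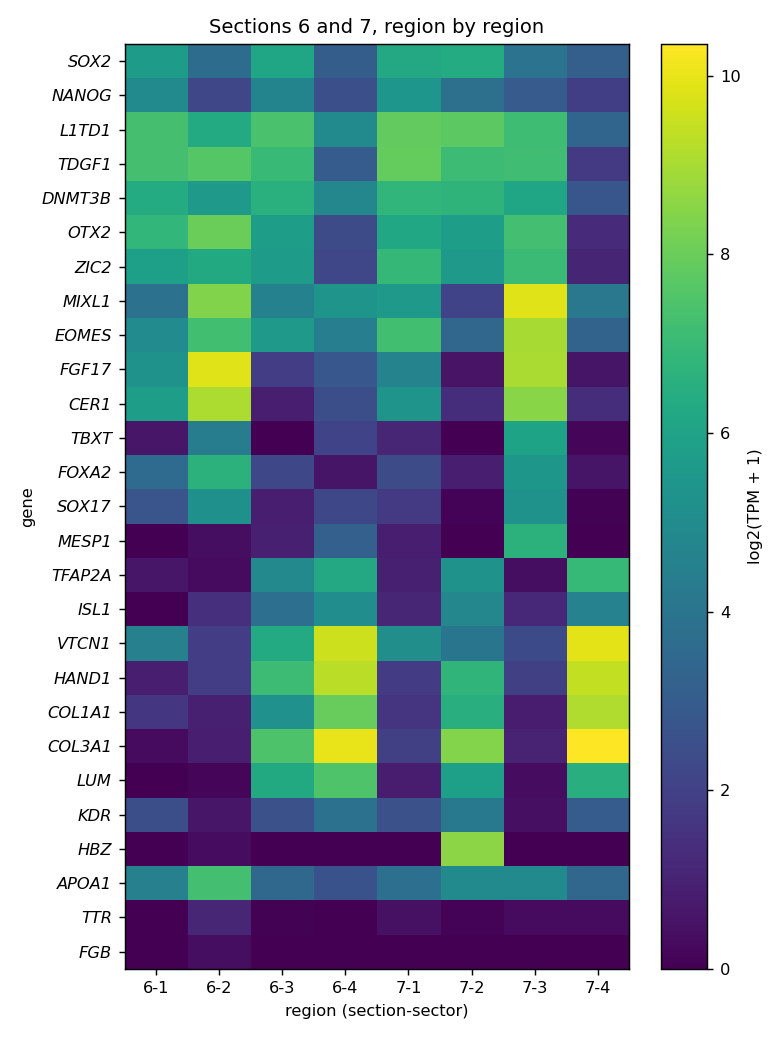
Level of 27 named genes, as log2(TPM + 1), in the 8 regions of sections 6 and 7, labelled by section and sector. Regions 6-2 and 7-3 hold the highest MIXL1, FGF17 and CER1, regions 6-4 and 7-4 the highest VTCN1 and COL3A1, regions 6-1 and 7-1 the highest NANOG, and region 7-2 alone holds HBZ above 1 TPM.

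Sections 1 to 5 were mixed as well. All 28 regions had both APOA1 at 11.9 TPM or more and LUM at 159.7 TPM or more, although both of these lowest values lay within the range of sections 6 and 7. Sector 7 of section 2 and sector 6 of section 1 had the lowest TTR (2.78 and 42.1 TPM) and high LUM (4852 and 7124 TPM) and COL3A1 (1456 and 1735 TPM). In these 2 regions FGB was at 27.5 and 260.1 TPM, against 0 to 0.321 TPM in sections 6 and 7.

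The genes that separated the blocks in every region included broadly expressed ones beside markers such as TTR, SOX2 and MIXL1. All 28 regions lay above all 8 for 61 of the 12492 genes (0.488%), and all 8 above all 28 for 117 (0.937%). Of the 61, 14 belonged to the plasma protein lists and 44 to no list, and 35 were at 1 TPM or more in all 36 regions. Of the 117, 111 belonged to no list and 21 were at 1 TPM or more in all 36. Over all 12492 genes, 2869 were at 1 TPM or more in all 36. Broadly expressed genes among the 61 and the 117, chosen after their values were seen, include CALR, ARPC4, SEC22B, PPP1CB, TRIM28, SLC25A39 and NOP53. CALR, the calcium-binding chaperone calreticulin of the endoplasmic reticulum, was at 1669 to 6559 TPM in the 28 regions and 68.5 to 212 TPM in the 8. The difference was 4.41, with an SD of 0.09 over the 5 section means. In the 2 regions of low TTR, CALR was at 2572 and 2003 TPM.

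The levels of ARPC4, SEC22B and PPP1CB did not overlap between the blocks either. ARPC4, a subunit of the actin-nucleating ARP2/3 complex, was at 282 to 1419 TPM against 18.6 to 71.3 TPM (difference 3.28). SEC22B, a vesicle SNARE, was at 85.8 to 379.9 against 5.01 to 29.7 TPM (3.86), and PPP1CB, a protein phosphatase subunit, at 136 to 1743 against 34.0 to 109 TPM (2.88). TRIM28, a corepressor, went the other way, at 13.1 to 98.6 TPM in the 28 regions and 146 to 296 TPM in the 8 (-2.26). SLC25A39, a mitochondrial carrier (-3.07), and NOP53, a ribosome assembly factor (-2.30), did so too. At E18 the medians over 50 regions were 340.2 TPM for CALR, 79.5 for ARPC4, 268 for TRIM28 and 134 for SLC25A39. The highest CALR at E18 (801 TPM) lay below the lowest of sections 1 to 5. GAPDH, a glycolytic enzyme, was at 766 to 2714 TPM against 2734 to 4917 TPM and did not overlap either, with a difference of -1.20. Genes at 1 TPM or more in all 36 regions numbered 2869, with a median difference of 0.14, and 16.2% of them were counted as higher in sections 1 to 5 and 7.84% in sections 6 and 7. The labels give no capture day or library batch for the sections, so a batch that followed the blocks cannot be told apart from them, for these genes or for any other difference between the blocks. What lay behind the levels of these broadly expressed genes was not tested.

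**Figure D5:**
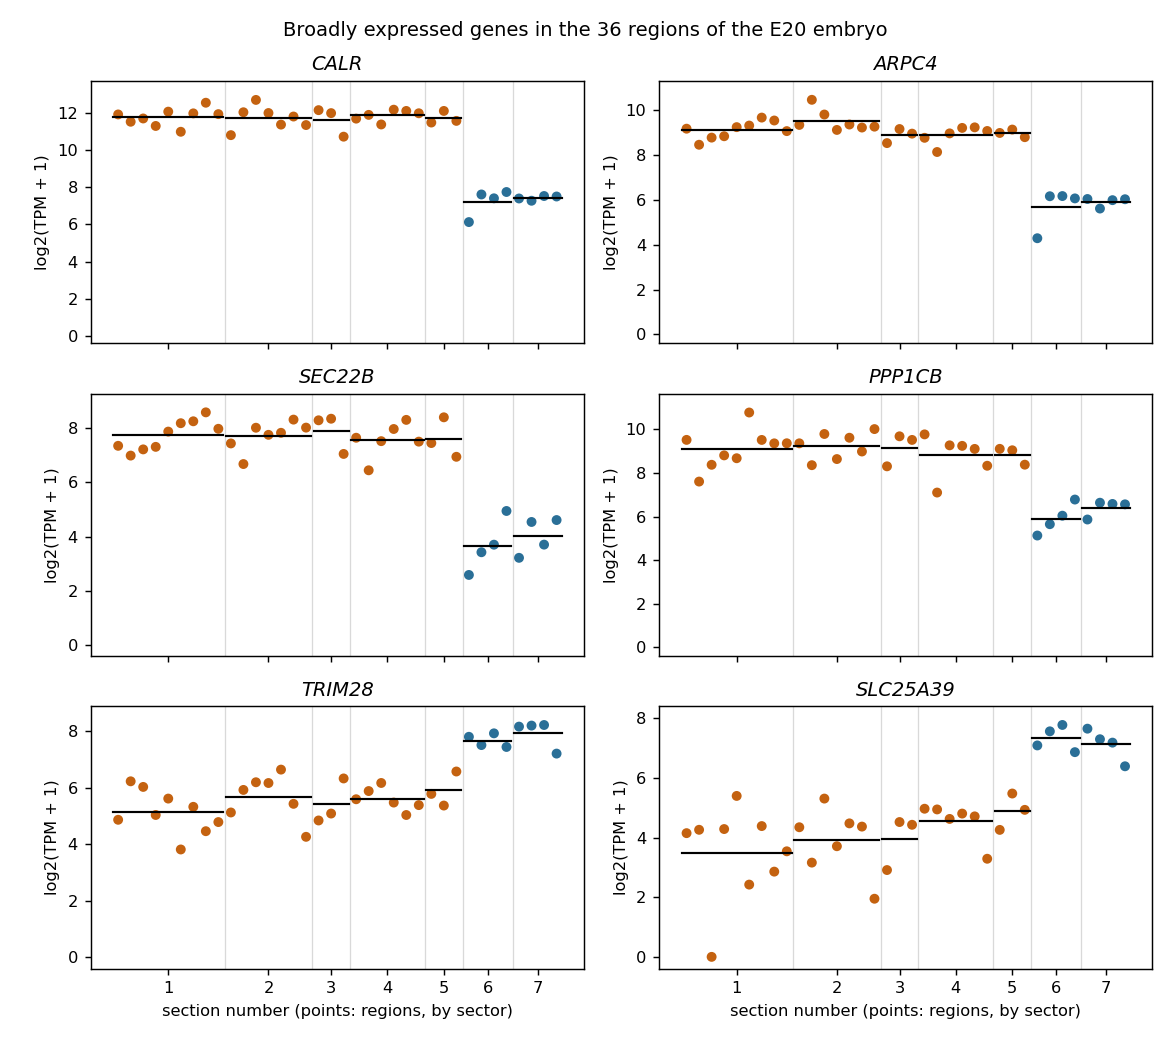
Level of 6 broadly expressed genes, as log2(TPM + 1), in each of the 36 regions by section number (orange, sections 1 to 5; blue, sections 6 and 7; black bars, section means). CALR, ARPC4, SEC22B and PPP1CB lie higher in every region of sections 1 to 5, and TRIM28 and SLC25A39 higher in every region of sections 6 and 7.

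Within the blocks, few genes passed a test between sections, a contrast that the split did not use. Regions of the same section differed widely, so the small counts do not show that few genes differ. With limma's moderated F test over the 28 regions of sections 1 to 5, 5 of 12450 genes passed an adjusted p of 0.05 (0.0402%), and 678 had an unadjusted p under 0.05. These 678 are close to the share that chance alone gives at that threshold. The regions come from 1 embryo, so these p-values are too small and speak for this embryo alone. ZNF780A, a zinc finger gene (limma adjusted p = 0.0002597), had section means of 3.56 TPM in section 3 and 7.95 TPM in section 5, and 0.369 TPM or less in the other 3. SNORA78, the entry of a small nucleolar RNA (adjusted p = 0.0004551), was at 9.60 TPM in section 5 and listed at 0 throughout sections 1 and 2. Polyadenylated RNA was sequenced, and whether these reads came from the small RNA itself was not tested. CHMP4C, an ESCRT-III subunit (adjusted p = 0.008294), was highest in section 3 (5.62 TPM). The other 2, SPATA45 and MIOX, chosen after their values were seen, had no section mean above 4.65 TPM. Without section 1 the test called 11 genes, without section 3 it called 3, and without section 5 it called 2. None of the plasma protein, mesenchyme or endothelial genes was among the 5.

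Between sections 6 and 7, 1 of 12402 genes passed (0.00806%), and 645 had an unadjusted p under 0.05, again close to the share given by chance. The test did not match regions by the 4 pairs above, so differences between the pairs counted as spread within a section. SF1, a splicing factor, was at 4.02, 6.74, 5.96 and 9.49 TPM in the 4 regions of section 6 and at 58.7, 58.4, 71.5 and 71.8 TPM in those of section 7. The 4 values of section 7 all lay above the 4 of section 6, and the difference was 3.17 ± 0.31 (SE, limma adjusted p = 0.0235, n = 4 regions in each section). SF1 did not pass when any 1 of 7 of the 8 regions was left out, the exception being sector 4 of section 6. MIXL1, EOMES and the other streak genes named above did not pass.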

How the data were processed

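RNA of laser-captured regions was sequenced, and the authors deposited 1 table of TPM values with 17023 genes and 1 column per region. fastp, HISAT2 and StringTie are named, without versions, per the submitters' processing notes. A genome build is not given in the sources used here, and neither coordinates nor sequences are stated. Each column was assigned to a sample through its stage, embryo, section and sector numbers, with 0 unmatched. Some genes of the lists are not analysed or not reported here.

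The 36 regions of the E20 embryo were used, as log2(TPM + 1). Genes were kept if they reached 1 TPM in 5 or more of the 36 regions. Regions were averaged per section, and the section means were compared between sections 1 to 5 and sections 6 and 7 without a test. Sections within a block were compared with limma 3.58.1 under R 4.3.3 (eBayes, trended prior), over genes that vary within the block, with Benjamini-Hochberg adjustment at 0.05. Other steps used Python 3.11.15, numpy 2.4.6, pandas 2.3.3 and matplotlib 3.10.9. Scripts were tested on simulated data. Sector numbers were checked as a possible pairing of regions.

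The gene groups are 26 lists. The members and lists were chosen with earlier results of these data known. Genes named are the 15 with the largest difference in each direction at a mean of at least 5 TPM in the higher block, a panel of 43 genes, list members, and for the limma tests the 10 genes of smallest p with a section mean of at least 5 TPM. Alternatives were a pseudocount of 0.1, quantile normalization, removal of mitochondrially encoded genes, section medians, other filters, a difference of at least 2, sector number as a block, genes detected per region as a covariate, and leaving out sections or regions. TPM keeps no counts, so no counting interval is given.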

Additional observations from a re-analysis of the deposited data

Results flagged for a closer look

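Each group of section means or of the 8 regions of sections 6 and 7 was searched for a highest or lowest value far from the others, for the panel, top and named broadly expressed genes. Such a value was found in 16 of 127 groups. Chance flags about 5% of groups of normally distributed values, a rate that does not hold for groups made mostly of values listed at 0. In the groups of ALB, FGB, APOA2 and DPPA5 all other values were 0. Values are log2(TPM + 1).

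In sector 2 of section 6 the endoderm genes APOA2 (1.68), TTR (1.13), FGB (0.40) and GATA4 (1.89) stood above the other 7 regions of sections 6 and 7. HBZ stood out in sector 2 of section 7 (8.57), CUBN in sector 1 of section 7 (0.18) and ALB in sector 3 of section 7 (0.029). CALR (6.12) and ARPC4 (4.29) were lowest in sector 1 of section 6, farther from sections 1 to 5 than in the other 7 regions.

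Among the means of sections 1 to 5, section 2 was lowest for TTR (8.51) and MTTP (6.65) and highest for DPPA5 (0.46). Section 1 was lowest for KDR (5.64). CST6 stood out in section 3 (0.67), and ZIC2 (0.61) and DNMT3B (3.62) in section 5.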

How the results depend on the processing

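The block counts kept within 1.5 times of their main values (1199 and 3034) under a pseudocount of 0.1 (1268 and 4040), quantile normalization (1641 and 2250), removal of mitochondrially encoded genes, section medians and leaving out any 1 section (1150 to 1424, and 2971 to 3409). A filter of at least 5 TPM in at least 8 regions left 1986 genes higher in sections 6 and 7. A difference of at least 2 left 446 genes higher in sections 1 to 5 and 810 higher in sections 6 and 7. The number of genes with all 28 regions above all 8 was 61 as deposited and 101 after quantile normalization, an alternative chosen after seeing the data.

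Among sections 1 to 5, limma called 3 genes after quantile normalization, 13 without a filter, and 2 to 11 when 1 section was left out. Between sections 6 and 7 it called 0 to 1 when 1 region was left out, with 388 to 997 genes at an unadjusted p under 0.05. With the number of genes detected per region as a covariate, limma called 4 genes among sections 1 to 5, where 561 had an unadjusted p under 0.05. Between sections 6 and 7 it called 1 with this covariate, and 814 had an unadjusted p under 0.05.

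Sector numbers did not pair the regions. Of 40 same-numbered pairs in sections 1 to 5, 5 had a correlation of deviations over 0.1, and of 4 pairs in sections 6 and 7, 2 did, with 4 of 8 regions correlating best with their own number. With the replicate block, limma called 5 genes among sections 1 to 5 and 0 between sections 6 and 7, where 1311 had an unadjusted p under 0.05 and the smallest adjusted p was 0.0796. Counts of small lists moved more than the block counts. With a pseudocount of 0.1, endothelial genes higher in sections 6 and 7 went from 1 to 3. With section medians, epithelial junction genes higher in sections 1 to 5 went from 0 to 2 and those of glycolysis from 3 to 5, as also without section 6. The median changed sign in at least 1 alternative for the trophoblast, decidual, macrophage and visceral endoderm lists. Depth is unknown, so low values such as those of MIXL1 in sections 1 to 5 carry no detection limit.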

Other observations

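Of 22 cell cycle genes tested, 9 were higher in sections 6 and 7 and 0 in sections 1 to 5 (median difference -0.63, against -0.34 over all genes). Over all genes the shares were 24.3% and 9.6%, and nothing is read from the count. The 9 include the replication helicase subunits MCM5 (-2.74), MCM7 (-2.56), MCM2 (-1.91), MCM3 (-1.61) and MCM4 (-1.19), and the mitotic genes AURKB (-1.88), PLK1 (-1.87) and CDC20 (-1.83). MCM7 was at 2.85 to 125 TPM in the 28 regions and 56.3 to 231 TPM in the 8, with overlap. The mean log2(TPM + 1) over the 22 genes was lowest of the 8 regions in sector 4 of section 6 (4.51) and sector 4 of section 7 (3.51), both under the median of the 28 regions (4.58). MCM6 (-0.49), MKI67 (-0.24), TOP2A (-0.17) and CDK1 (0.29) were not counted.

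Of 12 genes of glycolysis and hypoxia, PDK1 (1.71), HK2 (1.33) and BNIP3 (1.30) were higher in sections 1 to 5. PFKL (-2.08) and GAPDH (-1.20) were higher in sections 6 and 7. For this list and the next, the shares over all genes were 9.6% higher in sections 1 to 5 and 24.3% in sections 6 and 7. Nothing is read from the counts of these 2 lists. PFKL, the liver-type phosphofructokinase, was at 0 to 58.4 TPM against 40.0 to 107 TPM. Of 8 primordial germ cell genes, PRDM1 (4.93), a repressor also found in endoderm, was higher in sections 1 to 5 at 1.68 to 319 TPM, against 0 to 11.0 TPM. SOX15 (-2.24), TFAP2C (-2.49), DND1 (-2.91) and KIT (-1.20) were higher in sections 6 and 7. NANOS3, a germ cell RNA-binding protein, was at 76.6 TPM in sector 3 of section 2 and at 3.07 TPM or less in the other 35 regions. Sector 3 of section 2 had the fewest genes at 1 TPM or more of the E20 embryo (6194). The mean log2(TPM + 1) over the germ cell genes was 1.47 there, within the range of sections 1 to 5 (0.51 to 1.88). Whether this region held germ cells was not tested.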
